A study of Mus musculus with 12 samples.

Results

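The 4 genes described here mark the basal layer of the epidermis: Krt5, Krt14 and Krt15, which encode basal keratins, and Trp63, which encodes the transcription factor p63. They were chosen by name, and each had 1 transcript cluster with a single gene symbol in the platform annotation. All 4 passed the filter on low values and belong to the 15868 genes tested. Values are log2 expression values, 1 array per sample, from 12 arrays of primary keratinocytes of FVB/N mice, and a difference of 1 log2 unit is a doubling.

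The arrays form 4 groups of 3. The first holds keratinocytes of MT-HGF mice that were mock transduced, kept in 8% fetal bovine serum and given AG1478, an inhibitor of the epidermal growth factor receptor (EGFR) kinase, for 24 h. These transgenic mice overproduce hepatocyte growth factor, the ligand of the Met receptor, and MT is the metallothionein promoter in the usual naming of the line. The second group is MT-HGF control cells without the inhibitor. The third, called RAS, is wild-type cells transduced with v-rasHa, an oncogenic viral Ras, and the fourth, called WT, is wild-type control cells. The protocol field of the last 3 groups notes 3 days of RAS transduction on all their samples, and no source used here says whether the MT-HGF and WT controls received a mock transduction. Thus Ras and transduction cannot be told apart in RAS against WT cells. The AG1478-treated arrays came in a separate submission with its own wording of growth and extraction, and no vehicle arrays were used. The sample records used here give the serum of the treated cells only. Thus treatment, submission, mock transduction and any difference in serum cannot be told apart in any comparison with the treated arrays. Against WT or RAS cells the MT-HGF transgene differs as well, and against RAS cells also v-rasHa. Neither the age of the mice nor pooling of animals is stated. The replicates are called biological in 3 groups, with no word on separate animals or cultures, so the p-values reflect array-to-array spread that could be technical.

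Epidermal keratinocytes divide in the basal layer and switch their keratins as they move up. Krt5 (type II) and Krt14 (type I) encode the partner keratins that form the filament network of basal cells and anchor it to hemidesmosomes. Krt15 encodes another type I keratin of basal cells, known from the hair follicle bulge. The p63 protein is required for a stratified epidermis and binds regulatory DNA of human KRT5 and KRT14, while Krt1 and Krt10 replace the basal pair in suprabasal cells.

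The Krt5 promoter is shown because p63, which Trp63 encodes, binds DNA through sites of the p53 family. Whether p63 acts on this window in these cells was not tested. The window runs from 250 bases before to 50 bases after the RefSeq start site (GRCm38.p6, minus strand, chr15:101712856-101713155), and capitals mark the only match to the p53-family decamer with CATG at its centre.

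Krt5 promoter: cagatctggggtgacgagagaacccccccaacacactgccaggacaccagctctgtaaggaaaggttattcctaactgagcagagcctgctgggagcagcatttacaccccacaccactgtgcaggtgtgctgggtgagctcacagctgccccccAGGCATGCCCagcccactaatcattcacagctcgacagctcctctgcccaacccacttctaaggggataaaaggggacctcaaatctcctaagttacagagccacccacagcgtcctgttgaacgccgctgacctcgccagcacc

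The match begins 95 bases and ends 86 bases upstream of the start site. The same search, which reads both strands at once because the pattern is its own reverse complement, found a match in 635 of 32851 promoter windows of this length (1.93%). A match describes the letters and does not show binding. No match to GCCNNNGGC, a consensus of AP-2 factors, lay in the window, and 16.6% of all windows held one. For Krt14 the window in the same table begins at a start site 1480 bases inside the annotated gene, so it is not printed. Krt15 and Trp63 are named only.

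The keratinocyte label was checked against 14 markers, among them Krt5, Krt14, Trp63 and the cadherin gene Cdh1. All 14 were measured and lay above the array background (the 95th percentile of the 1245 chemosensory receptor clusters, 6.08 to 6.33 log2 units) in every group. Markers of other cells were present as well, so this check cannot tell keratinocytes from a mixture with other cells. The summed level of 15 fibroblast markers was 12.68 to 12.78 log2 units on AG1478-treated arrays, 12.72 to 12.81 on MT-HGF arrays, 12.33 to 12.38 on RAS arrays and 13.06 to 13.13 on WT arrays, and 2, 2, 4 and 1 of the 15 were at background. The 11 melanocyte markers summed to 13.45 to 13.59 log2 units on AG1478-treated arrays, 13.45 to 13.62 on MT-HGF, 13.89 to 14.02 on RAS and 13.79 to 13.93 on WT arrays, with none at background. The leukocyte marker Ptprc and the endothelial marker Cdh5, named after their values were seen, were at background on every array. They do not stand for their lists. Of 6 leukocyte markers measured, 4, 3, 2 and 3 were at background on all AG1478-treated, MT-HGF, RAS and WT arrays. Of 7 endothelial markers 2 were at background in each group, and the rest of both lists passed it on 1 array or more. In MT-HGF against WT cells, where 40.9% of all genes were called, 4 fibroblast markers were higher and 9 lower, and 0 melanocyte markers were higher and 8 lower. In RAS against WT cells, with 32.5% of all genes called, the 6 leukocyte markers measured had 1 higher and 1 lower and the 7 endothelial markers 1 and 1. In MT-HGF against WT cells these lists had 1 and 2, and 1 and 1, and after AG1478, with 16.5% of all genes called, 1 and 0, and 0 and 0. In such bulk samples, fewer cells of a type and less RNA per cell cannot be told apart.

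Krt5 and Krt14 were abundant and nearly level across the 4 groups. Krt5 had 13.48, 13.50 and 13.46 log2 units on the AG1478-treated arrays, 13.34, 13.40 and 13.40 on MT-HGF arrays, 13.38, 13.52 and 13.52 on RAS arrays and 13.50, 13.52 and 13.43 on WT arrays. The MT-HGF arrays were all below the WT and the AG1478-treated arrays, and RAS arrays overlapped with every other group. Krt14 had 13.01, 13.02 and 12.95 log2 units on AG1478-treated arrays, 12.89, 12.90 and 12.85 on MT-HGF arrays, 12.91, 13.02 and 12.98 on RAS arrays and 13.05, 13.02 and 12.96 on WT arrays. Its MT-HGF arrays lay below those of each other group without overlap, and the other 3 groups overlapped. Separation of this kind was common: 50.4% of all genes did not overlap between MT-HGF and WT arrays, 39.2% between MT-HGF and RAS arrays and 34.2% between AG1478-treated and MT-HGF arrays.

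**Figure D1:**
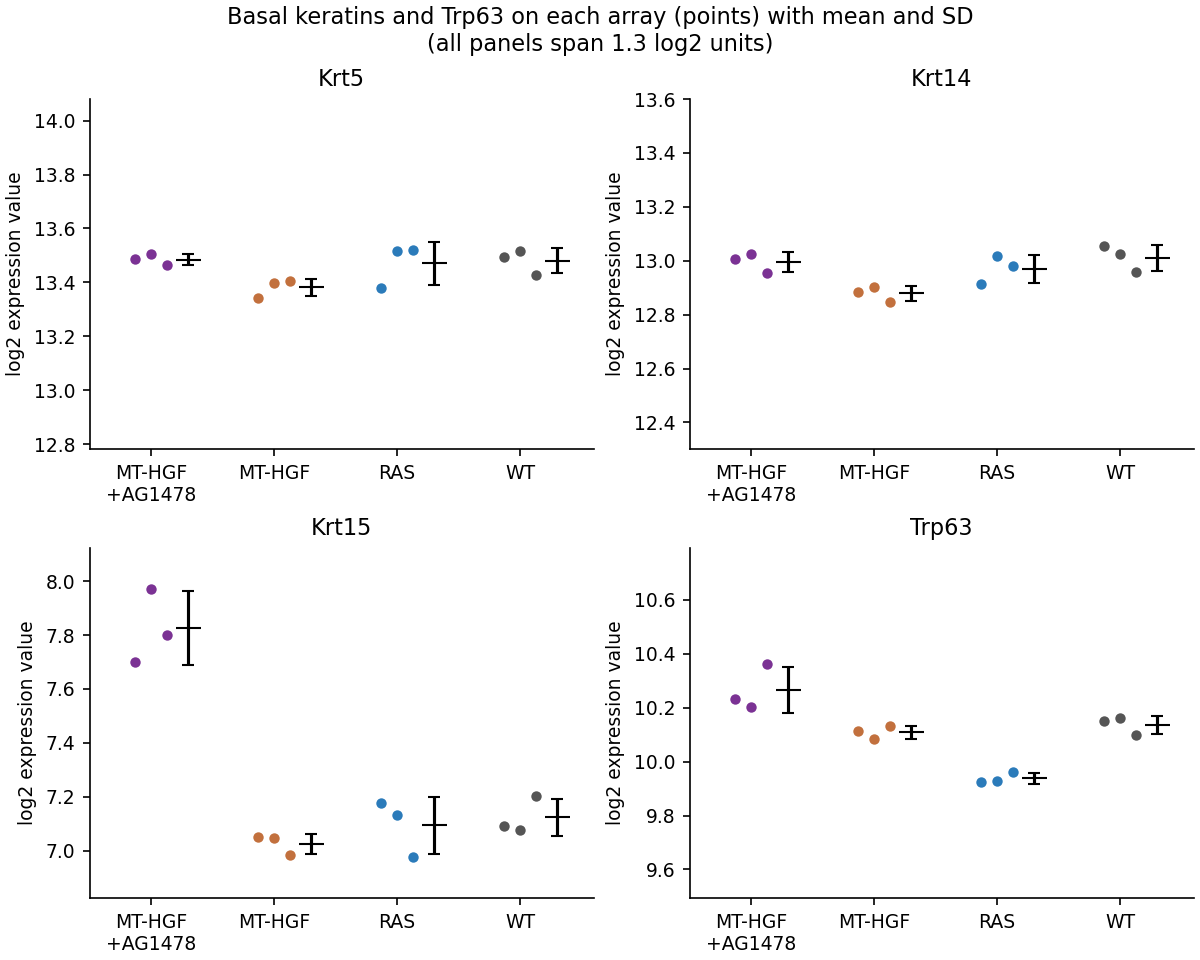
Log2 expression values (vertical axes, each panel spanning the same height) of Krt5, Krt14, Krt15 and Trp63 on the 12 arrays, with points for arrays and bars for the mean and SD of 3 arrays. Krt15 stands apart in AG1478-treated cells, at 7.70 to 7.97 log2 units, and Trp63 is lowest in RAS cells, at 9.93 to 9.96.

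No comparison of groups called Krt5 or Krt14. In RAS cells Krt5 differed from WT by -0.01 ± 0.062 log2 units (SE over 3 against 3 arrays; limma adjusted p = 0.936), with a 95% interval of 0.906 to 1.09 for the ratio of RAS to WT. Krt14 differed by -0.04 ± 0.060 log2 units (limma adjusted p = 0.694), with an interval of 0.890 to 1.06. In MT-HGF cells Krt5 was at -0.10 and Krt14 at -0.13 log2 units against WT (limma adjusted p = 0.240 and 0.0956), and the ratio intervals were 0.852 to 1.02 and 0.835 to 0.997. After AG1478 the differences from untreated MT-HGF cells were 0.10 and 0.12 log2 units (limma adjusted p = 0.289 and 0.216), with ratio intervals of 0.980 to 1.18 and 0.992 to 1.18. Both genes lie close to the top of the range of the arrays, whose highest values were 14.1 to 14.2 log2 units. Whether this limits the differences that could be seen was not tested.

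The order of the group means was AG1478-treated, WT, RAS and MT-HGF for Krt5, and WT, AG1478-treated, RAS and MT-HGF for Krt14. No neighbours in either order were called apart (limma adjusted p between 0.319 and 0.966). Within an array, Krt5 minus Krt14 differed by at most 0.03 log2 units in size between any groups compared, and exact permutation tests over 3 against 3 arrays gave p between 0.40 and 1.00 (two-sided, 18 tests of keratin pairs in all). The smallest p this design allows is 0.10, so the test could not pass and does not show that the partner genes change alike.

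Krt15 was the gene that moved after AG1478. It had 7.70, 7.97 and 7.80 log2 units on the AG1478-treated arrays, against 7.05, 7.05 and 6.98 on the MT-HGF arrays. RAS arrays had 7.18, 7.13 and 6.98 log2 units and WT arrays 7.09, 7.08 and 7.20. Every AG1478-treated array was above each of the other 9 arrays, which lay between 6.98 and 7.20. Among all genes, 50.5% did not overlap between AG1478-treated and WT arrays and 45.8% between AG1478-treated and RAS arrays.

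Krt15 was 1.74-fold higher in AG1478-treated than in untreated MT-HGF cells (95% interval 1.55- to 1.95-fold). The difference was 0.80 ± 0.078 log2 units (moderated SE for 3 against 3 arrays, limma adjusted p = 2.01e-06). In that comparison 16.5% of all genes were called, 6.57% higher and 9.91% lower. Of the 4 genes 1 was called, and 205 of the 15868 genes had a larger difference in size. Krt15 was also higher than in WT cells by 0.70 ± 0.078 log2 units (limma adjusted p = 1.59e-06), where 42.9% of genes were called and 16.8% higher, and higher than in RAS cells by 0.73 ± 0.078 log2 units (limma adjusted p = 1.78e-06), where 36.7% were called and 16.3% higher. These 3 comparisons share the treated arrays. The order of the other means was WT, RAS and MT-HGF, and neighbours there were not called apart (limma adjusted p = 0.835 and 0.610). Krt15 was at -0.03 log2 units in RAS and -0.10 in MT-HGF cells against WT (limma adjusted p = 0.835 and 0.371).

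The untreated levels of Krt15 were modest. They lay above the array background on every array. They lay only 0.02 to 0.25 log2 units above a stricter one, chosen after the data were seen, the 95th percentile of the 157 chemosensory receptor genes left by the filter, against 0.67 to 0.95 on AG1478-treated arrays. A fold change from such levels can be understated. Within the same arrays, Krt15 minus Krt14 was higher by 0.68 log2 units in AG1478-treated than in untreated MT-HGF cells and Krt15 minus Krt5 by 0.70. In both cases the groups did not overlap, and the exact permutation p of 0.10 was the smallest that 3 against 3 arrays can give, so this test could not pass (0.30 after Benjamini-Hochberg adjustment over 18 tests). Against untreated MT-HGF cells, melanocyte markers had 0 of 11 called after AG1478 and fibroblast markers 0 of 15 higher and 2 lower, and their summed levels overlapped between treated and untreated MT-HGF arrays. In AG1478-treated against WT cells 8 melanocyte markers were lower, and 4 fibroblast markers were higher and 8 lower. Against RAS cells 9 melanocyte markers were lower, and 8 fibroblast markers were higher and 2 lower. Their part in the results for Krt15, and for Trp63 against RAS, was not tested.

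**Figure D2:**
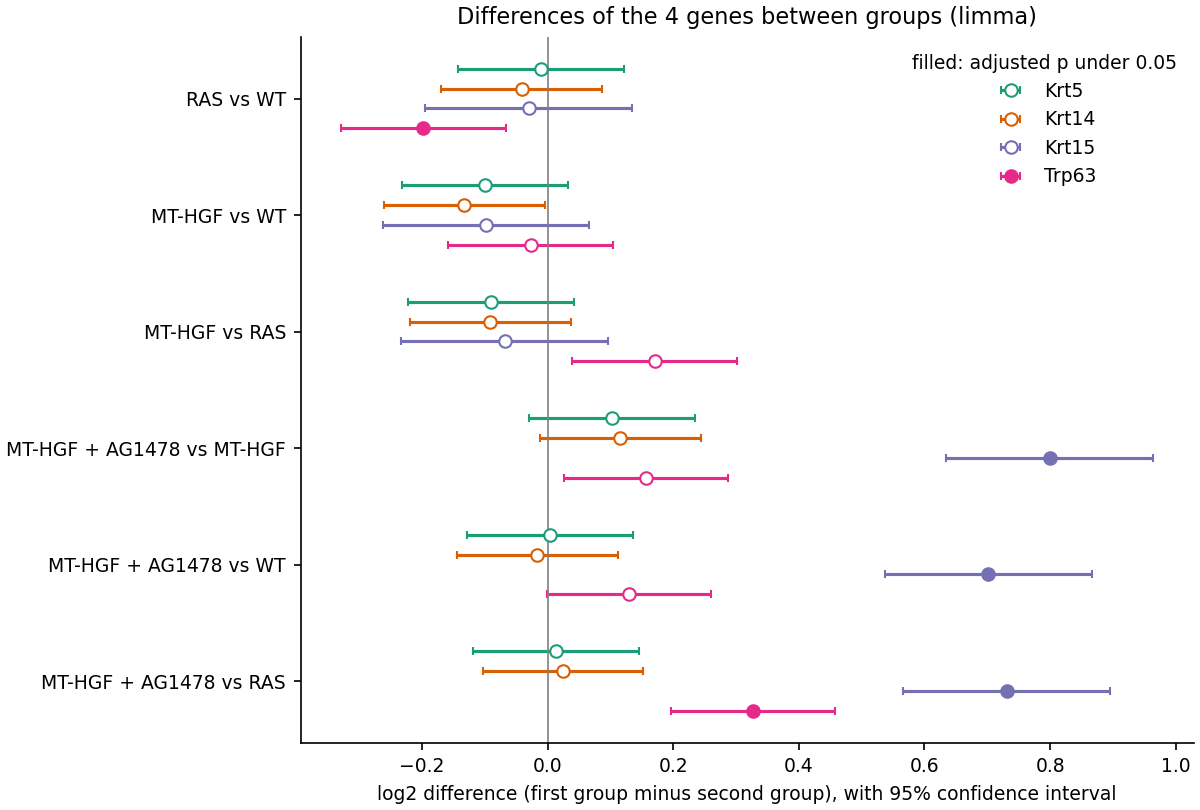
Log2 differences between groups (horizontal axis, first group minus second, with 95% confidence intervals) of Krt5, Krt14, Krt15 and Trp63 in the 6 comparisons, with filled points for an adjusted p under 0.05. Krt15 is filled in the 3 comparisons with AG1478-treated cells, Trp63 in RAS against WT (-0.20) and in AG1478-treated MT-HGF against RAS (0.33), and Krt5 and Krt14 in none.

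Trp63 was lowest in RAS cells. It had 9.93, 9.93 and 9.96 log2 units on RAS arrays, against 10.15, 10.16 and 10.10 on WT arrays. MT-HGF arrays had 10.11, 10.08 and 10.13 log2 units and AG1478-treated arrays 10.23, 10.20 and 10.36. The RAS arrays lay below all others, and the AG1478-treated arrays above all others. The single cluster is annotated with several RefSeq transcripts of Trp63, so the isoforms with and without the N-terminal activation domain were measured together.

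Trp63 fell in RAS cells by 0.20 ± 0.062 log2 units relative to WT, or 1.15-fold (moderated SE for 3 against 3 arrays, limma adjusted p = 0.0206). It was the 1 gene of the 4 called in that comparison, where 32.5% of all genes were called, 12.6% higher and 19.9% lower, and 42.9% did not overlap, and 5514 genes had a larger difference in size. The call was lost when RAS replicate 1, RAS replicate 2 or WT replicate 2 was left out (adjusted p = 0.0577, 0.0594 and 0.0772), while the difference stayed between -0.22 and -0.18. Fibroblast markers moved in the same comparison, with 1 of 15 called higher and 9 lower, and melanocyte markers had 0 of 11 called. Their part in the result was not tested.

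In MT-HGF cells Trp63 was at -0.03 log2 units against WT (limma adjusted p = 0.799), and none of the 4 genes was called in that comparison, where 40.9% of genes were (17.1% higher and 23.9% lower). Trp63 was at 0.17 ± 0.062 log2 units in MT-HGF against RAS cells (limma adjusted p = 0.0526), where 26% of genes were called and none of the 4. It was called there with no filter, another prior or array weights (adjusted p = 0.0441, 0.0394 and 0.0218). With AG1478 it was at 0.16 log2 units against untreated MT-HGF cells (limma adjusted p = 0.0985) and at 0.13 against WT (limma adjusted p = 0.105). In AG1478-treated MT-HGF cells it was higher than in RAS cells by 0.33 ± 0.062 log2 units (limma adjusted p = 0.000518). These 2 groups differ in transgene and v-rasHa as well as in treatment, and the part of each was not tested. In that comparison 36.7% of all genes were called, 16.3% higher, 45.8% did not overlap, and 3472 genes had a larger difference in size. The means of Trp63 ran from AG1478-treated through WT and MT-HGF to RAS. No neighbours in that order were called apart (limma adjusted p between 0.0526 and 0.799). MT-HGF and RAS arrays did not overlap, nor did AG1478-treated and WT arrays, which held for 39.2% and 50.5% of all genes.

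Other keratins ranged from ones called in no comparison, as Krt5 and Krt14 were, to the suprabasal pair Krt1 and Krt10, with differences of several log2 units. Of 23 other epithelial keratins listed, 21 were measured. At background on all arrays of a group were 3 in AG1478-treated, 3 in MT-HGF, 3 in RAS and 4 in WT cells. Those called in no comparison include keratins at background on every array, unlike the abundant Krt5 and Krt14. In RAS against WT cells 9 were higher and 2 lower, with a median difference of 0.15 log2 units against -0.02 over all genes, of which 12.6% were called higher and 19.9% lower. In MT-HGF against WT cells 11 were higher and 3 lower (median 0.21, all genes -0.03 with 17.1% higher and 23.9% lower), and in AG1478-treated against untreated MT-HGF cells 6 were higher and 3 lower (median 0.10, all genes 0.02 with 6.57% higher and 9.91% lower). Krt17, an abundant keratin of stressed and appendage epithelium, was called in none of the 6 comparisons, with group means of 13.34 to 13.49 log2 units. Krt6a, another abundant keratin, named after its values were seen, was called once, at -0.17 in MT-HGF against WT cells (limma adjusted p = 0.0435). Krt1, the suprabasal type II keratin, averaged 8.07 log2 units in MT-HGF and 12.02 in WT cells (-3.96 ± 0.13, limma adjusted p = 4.62e-13), and 12.84 in AG1478-treated cells (4.78 above untreated MT-HGF). Krt10, its type I partner, was at -3.31 in MT-HGF against WT and at 2.92 after AG1478. Krt23 was at least 3.87 log2 units higher in RAS than in WT cells, where it was not above background, and fell by 1.46 after AG1478. Krt18, a keratin of simple epithelia, rose by 1.54 in RAS and 2.32 in MT-HGF cells against WT and fell by 0.40 after AG1478.

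**Figure D3:**
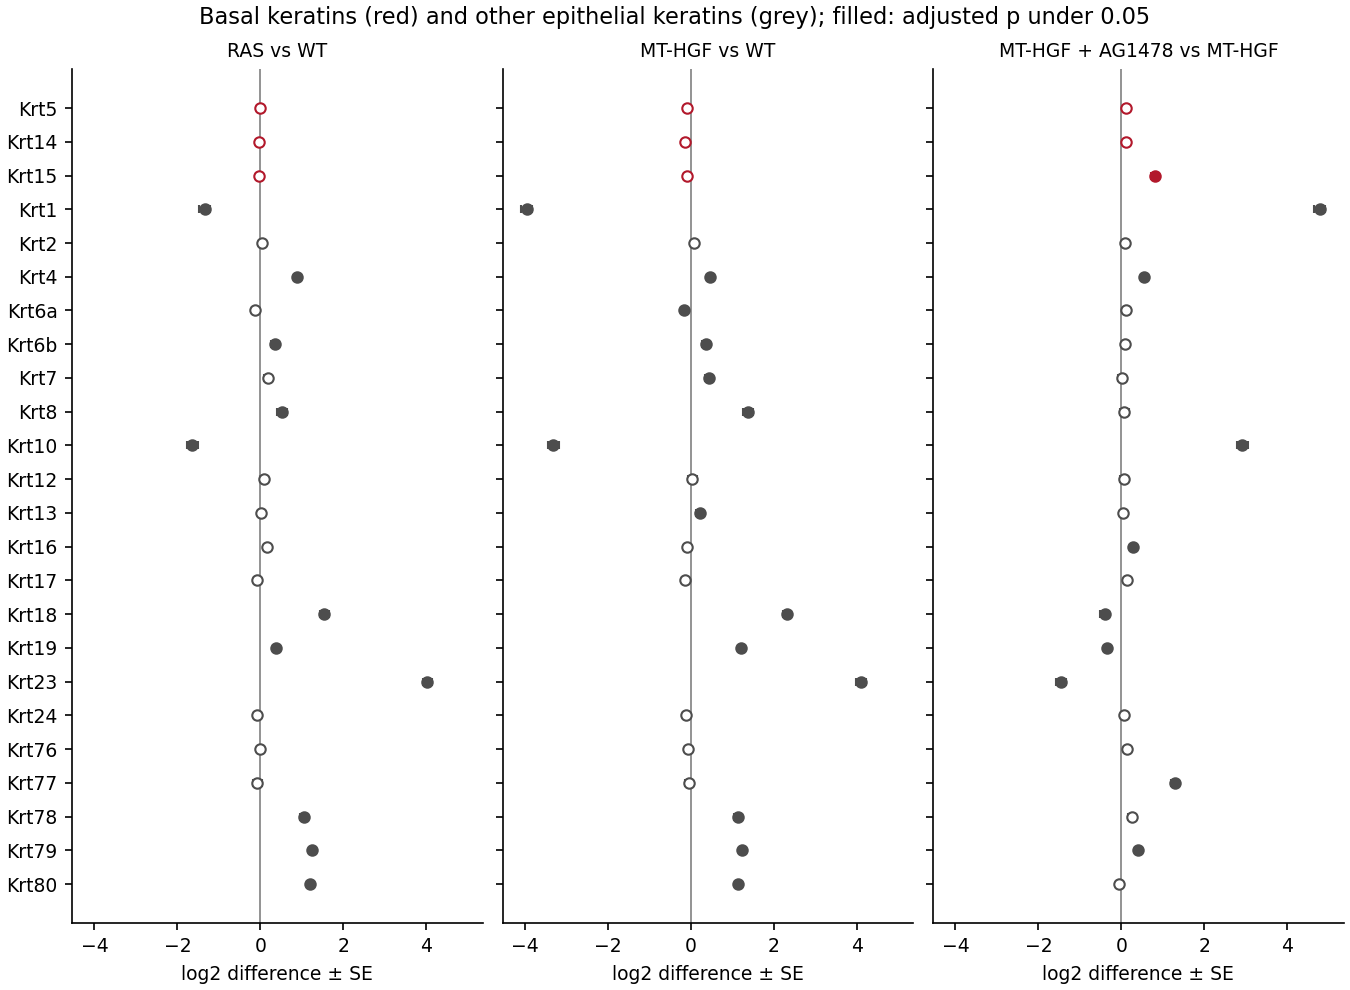
Log2 differences (horizontal axes, ± SE) of the basal keratins Krt5, Krt14 and Krt15 (red) and 21 other epithelial keratins (grey) in RAS against WT, MT-HGF against WT and AG1478-treated against untreated MT-HGF cells, with filled points for an adjusted p under 0.05. Krt5 and Krt14 stay within 0.13 log2 units of 0 in all 3 panels, while Krt1 reaches -3.96 and 4.78.

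Genes that p63 is known to act on were listed apart from the 4 genes, and 19 of 23 names were measured. In RAS against WT cells, where Trp63 fell, 3 were higher and 8 lower, with a median of -0.15 log2 units. Over all genes 32.5% were called, 19.9% lower, and the median was -0.02. Among them Jag1, a Notch ligand gene, fell by 0.83, the homeobox gene Dlx5 fell by 0.84 and Itga3, which encodes the alpha-3 integrin subunit, rose by 1.15. In MT-HGF against WT cells, where Trp63 was not called, 5 were higher and 8 lower (median -0.16, all genes -0.03 with 40.9% called). Jag1 was at -1.30, Dlx5 at -1.01 and Itga3 at 0.97. After AG1478 7 were higher and 3 lower than in untreated MT-HGF cells (median 0.11, all genes 0.02 with 16.5% called), with Fras1, which encodes a basement membrane protein, at 1.21, Dlx5 at 1.05 and the receptor gene Fgfr3 at 0.80. Fras1 averaged 6.20 log2 units in untreated MT-HGF cells, close to the background of those arrays (6.08 to 6.20).

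**Figure D4:**
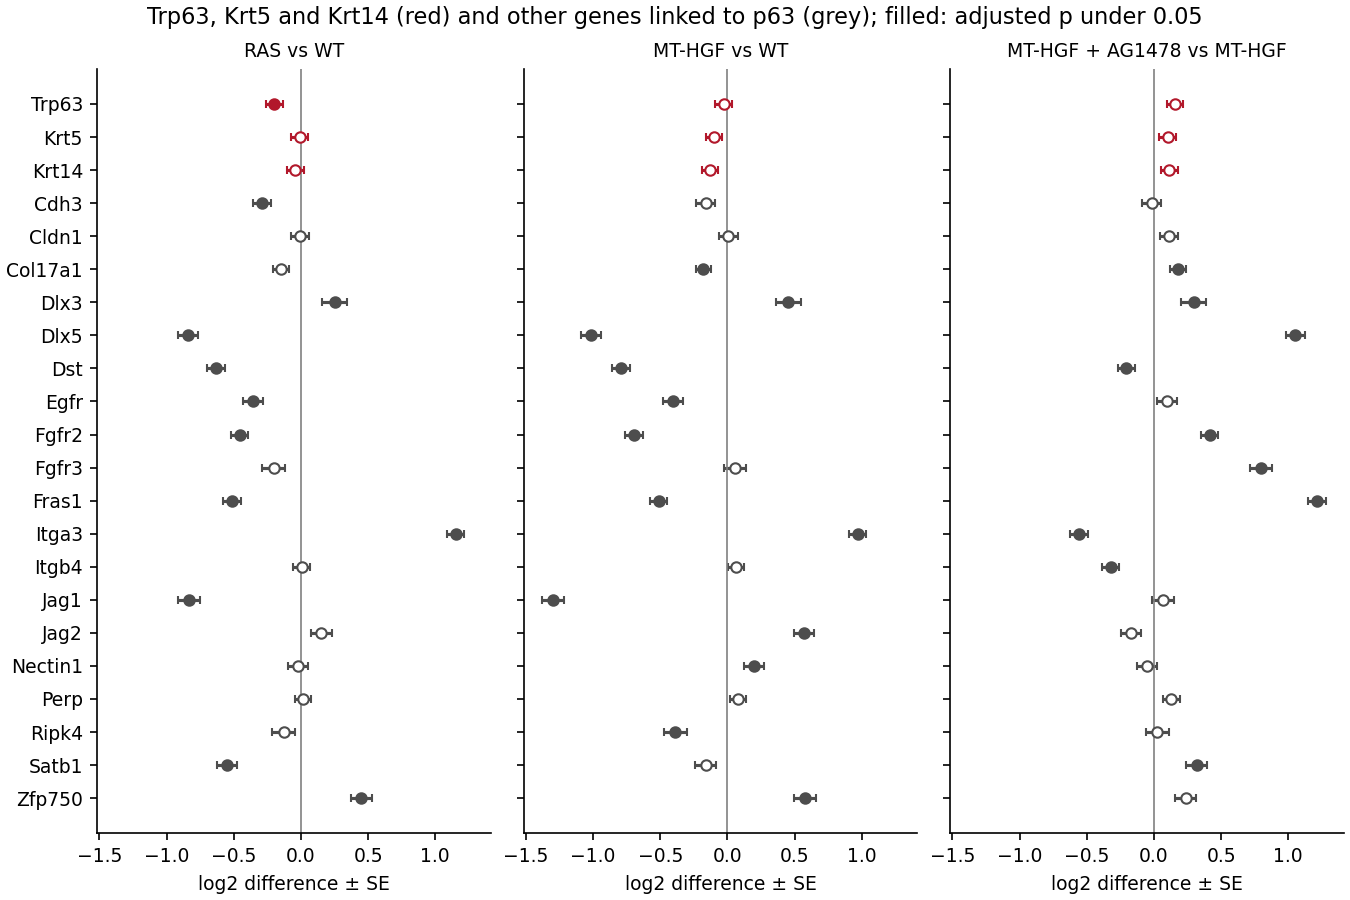
Log2 differences (horizontal axes, ± SE) of Trp63, Krt5 and Krt14 (red) and 19 other genes linked to p63 (grey) in 3 comparisons, with filled points for an adjusted p under 0.05. Dlx5 is at -0.84, -1.01 and 1.05 across the panels, while Trp63 is at -0.20, -0.03 and 0.16.

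The p63 family and its regulators had 11 of 14 names measured. In RAS against WT cells 4 were higher and 3 lower (median -0.06 log2 units, all genes -0.02 with 32.5% called). Ppp1r13b, which encodes a p53-family cofactor, rose by 0.50 and the ubiquitin ligase gene Wwp1 rose by 0.35, while the kinase gene Abl1 fell by 0.50 and Stxbp4, which encodes a partner that stabilises p63, fell by 0.70. In MT-HGF against WT cells 0 were higher and 5 lower (median -0.20, all genes -0.03). The share called was near the 40.9% of all genes called in either direction, of which 17.1% were higher and 23.9% lower. Stxbp4 was at -0.70 and the ubiquitin ligase gene Fbxw7 at -0.43. After AG1478 1 was higher and 1 lower (median -0.04, all genes 0.02), a share near the 16.5% of all genes called. Trp73, the gene of the related factor p73, rose by 0.41 and Wwp1 fell by 0.24.

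The adhesion genes of the basal layer encode hemidesmosome parts, to which the Krt5 and Krt14 network is anchored, laminin-332 and other matrix proteins, and the integrin of Itga3 and Itgb1, which is linked to actin. Of 11 measured of 12 listed, 4 were higher and 3 lower in RAS against WT cells (median 0.01 log2 units, with 32.5% of all genes called), and likewise 4 and 3 in MT-HGF against WT cells (median 0.06, with 40.9% called). Itga3 (1.15), the laminin-332 gene Lamb3 (1.04) and Itga6 (0.83) rose in RAS cells against WT. They also rose in MT-HGF cells against WT, by 0.97, 0.57 and 0.69. The linker genes Dst and Plec, whose products bind keratin filaments at hemidesmosomes, fell by 0.79 and 0.70 in MT-HGF cells against WT. In RAS cells they fell by 0.63 and 0.45. After AG1478 1 was higher and 7 lower (median -0.26, with 16.5% of all genes called, 9.91% lower), with Itga3 at -0.56, Itga6 at -0.54 and Itgb1 at -0.49.

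Other genes of basal or progenitor keratinocytes gave 24 measured of 24 listed. At background on all arrays of a group were 4 in AG1478-treated, 4 in MT-HGF, 3 in RAS and 2 in WT cells, and the lower counts include such genes. In RAS against WT cells 5 were higher and 12 lower (median -0.22 log2 units, with 32.5% of all genes called, 19.9% lower). In MT-HGF against WT cells 7 were higher and 13 lower (median -0.29, with 40.9% called, 23.9% lower). After AG1478 7 were higher and 5 lower than in untreated MT-HGF cells (median 0.10, with 16.5% called, 6.57% higher and 9.91% lower). Of 15 fibroblast markers 1 was higher and 9 lower in RAS against WT cells, and 4 were higher and 9 lower in MT-HGF against WT cells. Of 11 melanocyte markers 0 were higher and 8 lower in MT-HGF against WT cells. The gene Postn stands in this list and the fibroblast list. The part of those cells in the counts was not tested. Sostdc1, which encodes a secreted antagonist of BMP and Wnt signals, was at -3.41 in RAS and -4.54 in MT-HGF cells against WT. Its mean of 6.27 log2 units in MT-HGF cells lay close to the background of those arrays (6.08 to 6.20). Igfbp2, which encodes a binding protein of insulin-like growth factors, averaged 9.02 log2 units in AG1478-treated and 7.68 in untreated MT-HGF cells, and Id1, a gene of an inhibitor of helix-loop-helix factors, 9.50 and 8.70.  The suprabasal and granular list had 14 of 18 measured members higher and 2 lower in RAS against WT cells (median 0.94, with 12.6% of all genes higher) and 14 and 2 in MT-HGF against WT cells (median 1.04, with 17.1% higher), where Krt5 and Krt14 were not called. The 2 that fell were Krt1 and Krt10. Prdm1, which encodes a transcriptional repressor, was at 2.69 in RAS and 2.29 in MT-HGF cells. After AG1478 8 were higher and 5 lower (median 0.06, with 16.5% of all genes called), with Calml3, a gene of a calmodulin-like protein, at 1.38.

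Desmosomal and filament-anchoring genes, 13 of 13 measured, had 2 higher and 4 lower in RAS against WT cells (median -0.09 log2 units), 3 and 6 in MT-HGF against WT cells (median -0.15) and 4 and 2 after AG1478 (median 0.10). Over all genes the medians were -0.02, -0.03 and 0.02, with 32.5%, 40.9% and 16.5% called. Dsc2, which encodes desmocollin 2, was at 2.54, 2.73 and -0.90 in these comparisons, and Ppl, which encodes periplakin, at 1.16 and 1.49 in RAS and MT-HGF cells. The counts include Vim, which encodes the filament protein vimentin and not a desmosomal part. It was called in each comparison, at -0.26, -0.90 and 0.23.

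The genes most like each of the 4 across the 12 arrays were found by Pearson correlation of log2 values, given as a description without a test, since the arrays share groups and normalization. For Krt15 they were Ccr4 (r = 0.97), a chemokine receptor gene, Krt77 (0.97), a type II keratin gene, and Gabrp (0.97), which encodes a subunit of the GABA-A receptor. Their levels, which the choice by correlation fixes in direction, are given as a description: Gabrp averaged 8.00 log2 units in treated and 6.20 in untreated MT-HGF cells, Krt77 8.47 and 7.17, and Ccr4 was at least 0.76 higher, being at background in untreated cells. For Trp63 they were Nfic (0.97), a transcription factor gene, Bicra (0.97), which encodes a chromatin remodelling subunit, and Iscu (0.97), a gene of iron-sulphur cluster assembly. In RAS against WT cells they were at -0.35, -0.28 and -0.33 log2 units, a direction that this choice likewise fixes.

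For Krt14 the genes were Plaat3 (r = 0.90), which was not above background on 1 of 3 AG1478-treated, 3 of 3 MT-HGF, 2 of 3 RAS and 2 of 3 WT arrays, Krt17 (0.90), which encodes a type I keratin close in sequence to keratin 14, and Ints5 (0.88). Krt17 averaged 13.34 log2 units in MT-HGF and 13.49 in WT cells (-0.15). For Krt5 they were Mir301b (0.88), which was not above background in the 4 groups, the small nucleolar RNA gene Snord57 (0.87) and Krt14 (0.87). Over the same arrays Trp63 had r = 0.11 with Krt5, 0.12 with Krt14 and 0.65 with Krt15, and Krt15 had 0.29 with Krt5 and 0.35 with Krt14. Probes of type I keratins can be shared between members of that family, so the separation of Krt14 from Krt17 and Krt16 is uncertain.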

How the data were processed

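RNA of 12 keratinocyte samples was measured on Affymetrix Mouse Gene ST arrays, 1 per sample. The deposited values are log2 expression values per transcript cluster that the authors made with RMA, per the submitters' processing notes. Neither its version nor whether all 12 arrays were normalised together is stated there, and no scanner files were used. The array medians ranged from 6.77 to 6.84, and arrays of 1 group correlated at 0.993 or more. With no read depth to give, precision rests on 3 arrays per group.

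Of 35511 clusters 21789 had a single gene symbol. Clusters above the 30th percentile of their array on at least 3 arrays were kept, and the cluster with the highest mean stood for a gene, which left 15868 genes. limma 3.58.1 in R 4.3.3 fitted group means to all 12 arrays, with two-sided p-values adjusted by Benjamini-Hochberg over all genes and called under 0.05. The fit was tested on simulated data. Where all arrays of the lower group were at background, the difference is a bound against it. Beside the 4 genes, the 3 best correlated with each could be named. So could up to 3 called genes with the largest differences per list and comparison (RAS or MT-HGF against WT, AG1478-treated against untreated). A gene named for a comparison, such as Wwp1 after AG1478, may have its values in others given. Krt6a, Ptprc and Cdh5 were named after their values were seen. The genes and lists were chosen with earlier results of these data known. Promoters are from RefSeq (GRCm38.p6), with 2 of the 4 genes matched.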

Additional observations from a re-analysis of the deposited data

How the results depend on the processing

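Of 288 recomputed differences of the 4 genes, 264 kept direction and side of the threshold, 3 lost a call, 5 gained one and 16, all near 0 and uncalled, changed sign. The higher Krt15 with AG1478 stayed called in every alternative run (0.73 to 0.86 log2 units against untreated MT-HGF cells). With array weights, whose estimate stopped before its convergence tolerance, the log2 differences in RAS against WT were 0.039 for Krt5 and 0.015 for Krt14, Krt14 was at 0.031 and Trp63 at 0.121 (adjusted p = 0.015) in AG1478-treated against WT, Krt5 at -0.00063 in AG1478-treated against RAS and Trp63 at 0.168 in MT-HGF against RAS. The same weights called 8096 genes in RAS against WT (5158 without weights) and 3925 in AG1478-treated against untreated MT-HGF cells (2615 without). With arrays centred on their medians Krt5 was at -0.030 in AG1478-treated against WT and -0.0042 against RAS. A trended, robust prior called Krt14 in MT-HGF against WT (-0.132, adjusted p = 0.0163) and Trp63 in MT-HGF against RAS (0.171), as did the fit with no filter (0.171).

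Leaving out 1 array at a time gave -0.217 to -0.185 for Trp63 in RAS against WT, -0.0356 to 0.0367 for Krt5 and -0.0708 to 0.0296 for Krt15. It gave -0.0219 to 0.0221 for Krt5 and -0.0431 to 0.0042 for Krt14 in AG1478-treated against WT, and -0.0328 to 0.0377 for Krt5 and -0.0036 to 0.0481 for Krt14 in AG1478-treated against RAS. The replicate block changed no call of the 4 genes and called 5262 genes in RAS against WT. Same-numbered arrays correlated between -0.44 and 0.53 in their deviations. Among the 9 arrays without AG1478, the 6 pairs numbered 1 or 3 correlated at 0.27 to 0.53 and those numbered 2 at -0.24 to 0.09. Not every pair passed 0.1 and not every array correlated best with its own number, so the block was not used in the results. The next highest cluster could not be tried, as each gene has 1. Whether the top of the range (Krt5, Krt14) or background (Krt15) limited small differences was not tested. The SEs of Krt5 and Krt14 (0.062 and 0.060) were below the median SE of all genes (0.079).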
